A study of Junonia coenia with 38 samples.

Results

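The mid-metamorphosis models are gene models of the buckeye butterfly Junonia coenia whose read counts were high in wings of the prepupa and of the pupa at 72 h and low both before and after. They were chosen from the deposited count table itself. A model belongs when the lower of its mean normalized read counts in the prepupa and at 72 h is at least 50 and at least 3 times the higher of its means in the 5th larval instar and the late pupa, and when the prepupal and 72 h means lie within 3-fold of each other. Of 19234 models in the table, 92 met the rule. The level and closeness conditions alone were met by 6053 models. A normalized read count is the count divided by a median-of-ratios size factor of its library, and each stage mean is taken over 6 libraries.

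The table covers whole hindwings and whole forewings at 4 stages, which are the 5th larval instar, the prepupa, the pupa at 72 h and a late pupa, with 3 poly-A RNA libraries in each of the 8 groups. Caterpillars were raised at about 27C, and no group carries a mutation or a treatment in the labels. Late pupae are 6 days past pupation by their stage label but day 7 by their titles. Columns headed d3 were read as the 72 h libraries. Nothing says that libraries of one group come from separate animals, so the p-values measure the spread between these libraries, which may be technical.

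Butterfly wings grow as folded discs inside the caterpillar. Around the end of feeding the moulting hormone ecdysone rises, the animal becomes a prepupa, and the discs turn outward and spread under the forming pupal cuticle. A later rise of the hormone in the pupa accompanies the division and differentiation of scale precursor cells, and the late pupal wing lays down the cuticle and pigment of its scales. In Drosophila, pulses of ecdysone switch on early genes, many of them transcription factors, which in turn regulate later genes of moulting and of tissue remodelling. Hindwing identity in insects is set by the homeotic gene Ultrabithorax, which is off in most of the forewing.

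No names or functions came with the models, which are known by contig and by first and last position (contig:first-last), so roles could not be assigned and wing or other cell type markers could not be looked up. Library totals ran from 5795618 to 21284939 counts. The 92 models held 0.338% to 0.372% of the counts of each 5th instar library, 1.21% to 1.67% in the prepupa, 1.39% to 1.78% at 72 h and 0.220% to 0.243% in the late pupa. All 92 passed the filter on low counts that left 13282 models for testing. Exon lengths were not given, so a higher count in one model than in another is not a higher transcript level.

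The 92 models, high in the prepupa and at 72 h by the rule, covered very different scales. Their median stage mean was 53.7 normalized counts for 5th instar wings, 898 for the prepupa, 908 for 72 h pupae and 117 for late pupae. The highest stage means ran to 29648 in the prepupa and 30417 at 72 h, and the lowest to 0.649 in the 5th instar and 0.626 in the late pupa. Summed over the models, the 5th instar gave 21266 ± 879 normalized counts in hindwings and 21259 ± 442 in forewings (SD, n = 3 each, as in all such values here). The prepupa gave 167522 ± 7963 in hindwings and 296940.0 ± 35138 in forewings, so the forewing sum was the larger one, with no overlap between the wings. At 72 h the sums were 210570.0 ± 21089.6 in hindwings and 195854 ± 39083 in forewings, which overlapped, and in the late pupa 27565 ± 1399 in hindwings and 29871 ± 1780.2 in forewings. As shares of raw library totals the prepupal sums overlapped, at 1.31% ± 0.162 in hindwings and 1.5004% ± 0.155 in forewings. Since the rule is built on these stages, the steps between them are given as values without a test. In whole wings, fewer cells of a type and less RNA per cell cannot be told apart.

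**Figure D1:**
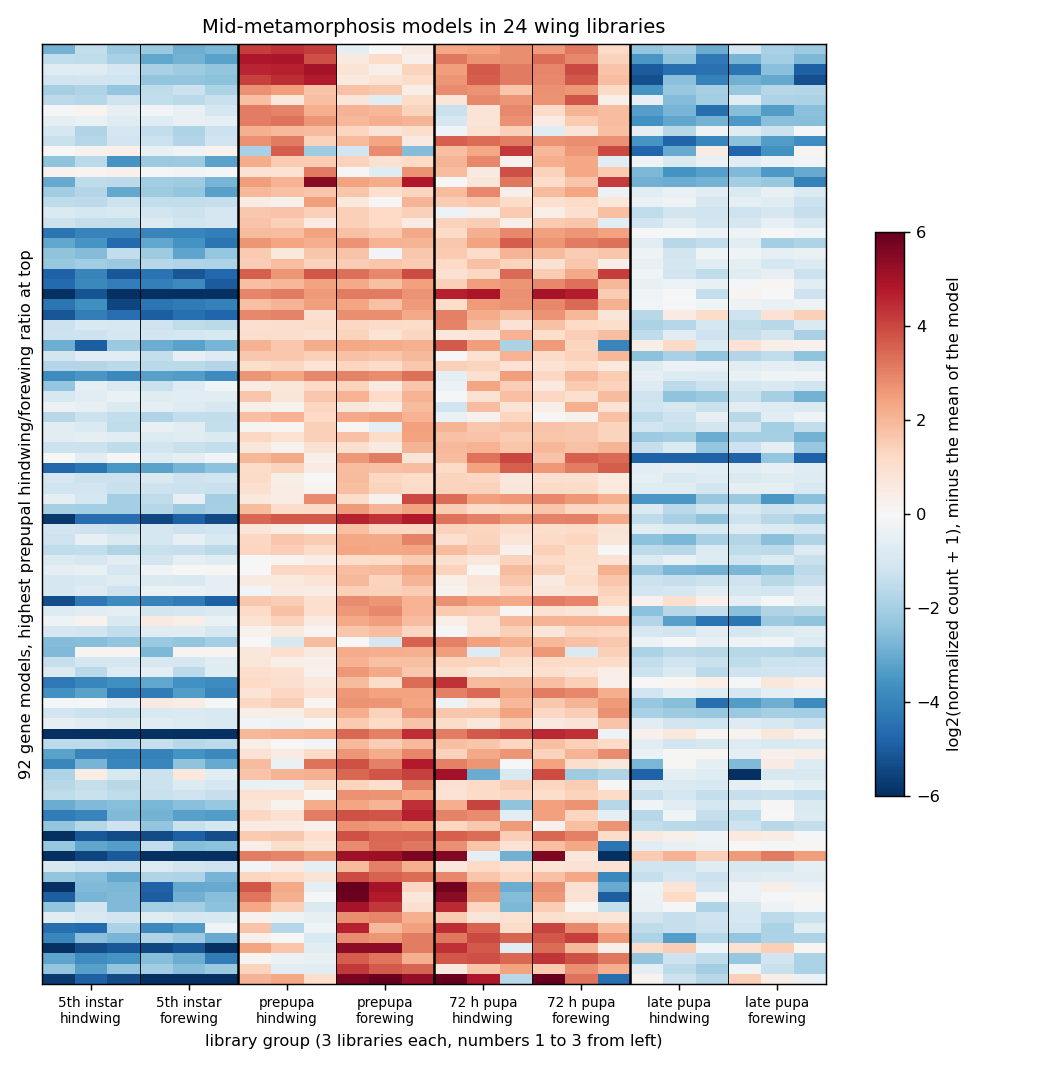
Each row is one of the 92 models and each column one of the 24 libraries, with stages from left to right and hindwings left of forewings within a stage. Colour is log2(normalized count + 1) minus the mean of the model over all libraries. Rows are sorted by the prepupal hindwing over forewing ratio. The 2 middle stages are red in nearly every row. In the lower rows prepupal hindwings are paler than prepupal forewings, and the top 4 rows show the opposite.

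Heights over the flanking stages differed widely. The ratio of the lower middle mean to the higher flanking mean had a median of 4.36 and ran from 3.005 to 33.5; it was at least 4 in 54 models, at least 10 in 18 and at least 20 in 7. The largest ratio belonged to 000108F:280670-288696, with stage means of 2.90, 250.0, 97.1 and 1.51 normalized counts from 5th instar to late pupa. Its prepupal values were 94.1, 68.9 and 708 in the hindwing libraries, against 87.2, 77.3 and 464 in the forewing libraries, and its 72 h values 15.7, 26.4 and 149.6 in the hindwing libraries, against 35.3, 51.3 and 304 in the forewing libraries. The library numbered 3 was the highest in both wings at both stages, and within each stage the wings overlapped.

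Ratios of 33.4, 29.6 and 29.0 followed for 000789F:55917-69750, 000036F:421611-423365 and 000789F:44478-46587, which belong with 1 more model to a group led by the hindwing and are described with the wing differences. Next came 000105F:758089-759764 at 25.9. Its stage means were 1.35, 3859, 5883 and 149, so it was near 0 in the larva and still present in the late pupa. In the prepupa it had 566, 669 and 271 in the hindwing libraries, against 7000.0, 9373 and 5272 in the forewing libraries, a forewing lead without overlap. At 72 h it had 18579, 3939 and 41.3 in the hindwing libraries, against 11436, 1298 and 4.97 in the forewing libraries, and in both wings number 1 was highest and number 3 lowest, with the wings overlapping.

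The sixth largest ratio, 25.5, was that of 000715F:20365-27682, with a larval mean of 17.7 and a late pupal mean of 182. Prepupal values were 6819.9, 7865 and 8036 in the hindwing libraries, against 15097, 12449.7 and 16617 in the forewing libraries, with every forewing above every hindwing. At 72 h it gave 5937, 5087 and 3863 in the hindwing libraries, against 4834, 5101 and 2987 in the forewing libraries, and the wings overlapped.

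Close to the threshold the choice is a matter of small differences. The 4 members nearest above a ratio of 3 were 000003F:5757285-5759365 at 3.005, 000201F:816997-822679 at 3.03, 000043F:642465-651774 at 3.06 and 000329F:178483-184582 at 3.06. Just outside it stood 000068F:472241-476653 at 2.997, 000084F:814580-818739 at 2.98, 000046F:2090789-2106432 at 2.95 and 000201F:807799-813119 at 2.94. The last of these lies on the same contig as the member 000201F:816997-822679 and had stage means of 16.8, 228, 149.7 and 51.0 from 5th instar to late pupa. Membership also depends on how libraries are scaled: with plain library totals in place of size factors, which was tried after the values were seen, 35 models met the rule and 34 of them were among the 92.

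The members with the most counts were high in all 12 prepupal and 72 h libraries. 000003F:224816-234679 had stage means of 6082, 29648, 30417 and 2048. Its prepupal values were 23774, 18974 and 26866 in the hindwing libraries, against 34190.0, 21367 and 52716 in the forewing libraries, and its 72 h values 33756, 32452 and 29073 in the hindwing libraries, against 31313, 30346 and 25559 in the forewing libraries. The wings overlapped in the prepupa and at 72 h, and the prepupal forewings were the most spread of these groups.

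000016F:154625-164314, whose span overlaps another model so that its counts are uncertain, lay further above its larval level, with stage means of 226, 15161, 19857 and 3429. At 72 h it had 8526, 16593 and 28094 in the hindwing libraries, against 21128, 24138 and 20661 in the forewing libraries. The hindwing libraries covered a wide range that included the forewing ones. 000005F:200827-212274, also overlapping another model, had stage means of 1155, 17961, 11627 and 2034, and 000017F:2078034-2081822 had 1835, 18458, 10603 and 1887. Both of these were higher in prepupal forewings.

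Before and after the high stages the models parted. In 56 of the 92 the late pupal mean was above the larval one, and in 36 it was below. The late pupa was at least 10-fold above the larva in 19 models and at least 10-fold below it in 2 (000074F:334216-343761 and 000840F:15142-22929, named after their values were seen), while 36 lay within 2-fold. The larval mean was at most 10 normalized counts in 23 models, the late pupal mean in 12, and both in 6. So 000377F:264215-275037 had 2.42 in the larva and 324 in the late pupa, 000105F:636121-652564 had 3.73 and 1584, and 000036F:431337-446513 the reverse, 91.7 and 13.7.

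Between the high stages the balance depended on the wing. Over both wings the 72 h mean divided by the prepupal mean had a median of 0.942, ran from 0.369 to 2.94, and lay within 1.5-fold of equality in 47 models. In hindwings alone the median was 1.499 and 70 of the 92 models were higher at 72 h. In forewings alone it was 0.741 and 30 were higher at 72 h. Applied to one wing at a time, the rule was met by 51 of the 92 in hindwings and by 65 in forewings, by 38 in both and by 14 in neither. The rule averages the wings and so does not fix their order, but it used the prepupal and 72 h counts of both, and a model can enter through one high wing alone: 13 met the rule in hindwings only and 27 in forewings only. Counts and medians of wing differences over the 92 are therefore a description of the models chosen and support nothing beyond them, and they are given also for the 38 that met the rule in each wing.

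In the prepupa the hindwing mean was below the forewing mean in 70 of the 92 models. The fitted log2 fold change, hindwing over forewing, was positive in 22 of the 92, beside 6401 of all 13282 models tested. Of the 92, 29 were lower and 4 higher in the hindwing at an adjusted p below 0.05 in the quasi-likelihood test of edgeR, in all 33 or 35.9% of the models, beside 10.5% of all models tested (7.08% lower, 3.42% higher) and 13.7% of the 6053 that met the level and closeness conditions. The median log2 fold change, hindwing over forewing, was −0.94 for the 92 (quartiles −1.73 and −0.08), against −0.02 for all tested models (quartiles −0.43 and 0.36). A log2 fold change of −1 or lower was seen in 45 models, or 48.9%, against 10.04% of all tested models. Values of the wings did not overlap in 44 models with the forewing above and 9 with the hindwing above, beside 17.0% of all tested models with the forewing above and 13.0% with the hindwing above.

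The 38 models that met the rule in each wing held fewer of these calls. In the prepupa 7 of them were lower and 0 higher in the hindwing (18.4%, edgeR). Beside this stand 10.5% of all models tested and 13.7% of the 6053 that met the level and closeness conditions. The hindwing mean was below the forewing mean in 25 of the 38, and the median log2 fold change was −0.21. These 38 are a selected set as well, since in each wing the prepupal and 72 h means had to lie within 3-fold. Of the 13 that met the rule in hindwings only, 3 were lower and 2 higher (38.5%). Of the 27 that met it in forewings only, 15 were lower and 0 higher (55.6%). Of the 14 that met it in neither, 4 were lower and 2 higher (42.9%). These shares stand beside the same 10.5% and 13.7%. The 27 entered through the forewing, so the direction of their calls is tied to how they were chosen.

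With libraries of the same number taken as pairs, 61 models were called, 51 lower and 10 higher in the hindwing (66.3%, beside 30.9% of all models tested that way), among them all 33. Scaled by library totals, a setting tried after the values were seen, 22 were called (23.9%), 15 lower and 7 higher, beside 27.6% of all models tested that way (2.51% lower, 25.1% higher). With both directions counted together, the share of the 92 on that scaling was thus no longer above that of all models. By direction, 15 of the 92 were lower, beside 334 of all 13282, and 7 were higher, beside 3336. This scaling moved the median of all models to 0.59 and that of the 92 to −0.32.

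**Figure D2:**
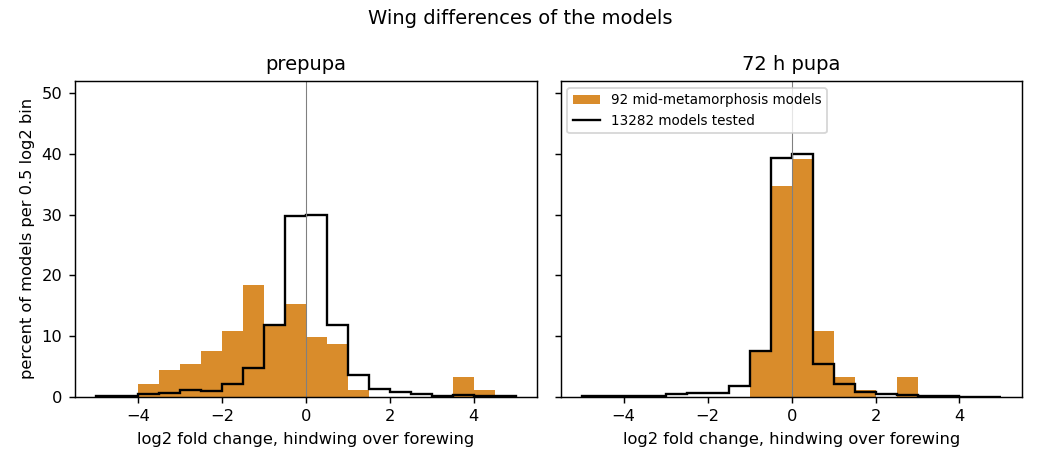
Percent of models in bins of 0.5 on the log2 scale of the hindwing over forewing fold change, in the prepupa (left) and at 72 h (right). Filled bars are the 92 mid-metamorphosis models and the line is all 13282 models tested. In the prepupa the bars lie left of the line, with a median of −0.94 against −0.02, and 4 models stand apart at the right. At 72 h bars and line both centre near 0.

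The 4 models higher in the prepupal hindwing lie in pairs on 2 contigs. 000036F:431337-446513 had 5462, 5847 and 7286 in the hindwing libraries, against 411, 297 and 594 in the forewing libraries. 000036F:421611-423365, its neighbour on the contig, had 660.2, 828 and 1055 in the hindwing libraries, against 57.4, 66.2 and 82.2 in the forewing libraries. Every hindwing library was above every forewing library in both, by more than the whole spread within either wing. The log2 fold changes were 3.84 ± 0.54 (SE, adjusted p = 0.00014, edgeR) and 3.62 ± 0.50 (adjusted p = 0.000105, edgeR).

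On contig 000789F, 000789F:44478-46587 had 319.6, 381 and 329 in the hindwing libraries, against 11.5, 17.2 and 25.7 in the forewing libraries, and 000789F:55917-69750 had 2799, 2917 and 1414 in the hindwing libraries, against 147, 206 and 119.8 in the forewing libraries. Again no forewing library reached a hindwing one. The log2 fold changes were 4.22 ± 0.47 (adjusted p = 1.52e-05, edgeR) and 3.91 ± 0.45 (adjusted p = 1.92e-05, edgeR). Both models overlap the span of another model, so their counts are uncertain. Whether the contigs hold copies of one place in the genome was not tested. All 4 calls held when any one prepupal library was left out.

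At 72 h the wings of these 4 models no longer stood apart. 000036F:431337-446513 had 1332, 3013 and 1989 in the hindwing libraries, against 1768, 3661 and 755 in the forewing libraries, and 000789F:55917-69750 had 859, 625 and 682 in the hindwing libraries, against 998, 707 and 254 in the forewing libraries. The wings overlapped in each of the 4, and forewing library 3 was the lowest of the 6. From prepupa to 72 h the forewing mean of 000036F:431337-446513 became higher and the hindwing mean lower. In the larva, where counts were far lower, 000036F:431337-446513 had 141, 139 and 114 in the hindwing libraries, against 59.1, 52.6 and 44.4 in the forewing libraries, a hindwing lead without overlap, but with an adjusted p of 1 (edgeR) and of 0.0818 with paired numbers. Larval means of 000036F:421611-423365 were 16.1 ± 0.365 in hindwings and 6.34 ± 0.238 in forewings, those of 000789F:55917-69750 30.5 ± 5.42 in hindwings and 10.7 ± 1.55 in forewings, and those of 000789F:44478-46587 3.30 ± 2.02 in hindwings and 2.00 ± 0.786 in forewings. In the late pupa all 4 had low counts, with stage means of 2.50 to 13.7.

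**Figure D3:**
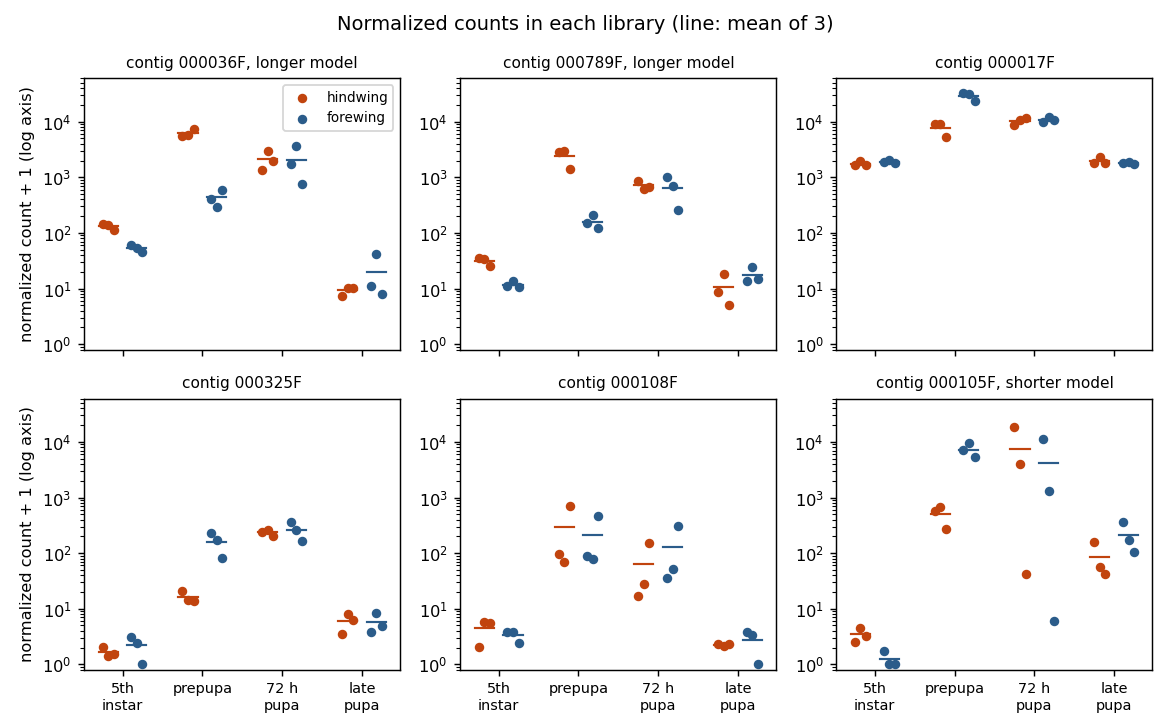
Normalized counts plus 1 on a log axis for 6 models, by stage from left to right, with hindwings left of forewings. Points are libraries in the order of their numbers and lines are means of 3. The first 2 panels show models higher in prepupal hindwings, 000036F:431337-446513 and 000789F:55917-69750, and the next 2 models higher in prepupal forewings, 000017F:2078034-2081822 and 000325F:485215-490693. In those 4 the wings separate in the prepupa and overlap at 72 h. The last 2, 000108F:280670-288696 and 000105F:758089-759764, show libraries of the same number moving together in both wings.

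The 29 models lower in the prepupal hindwing had log2 fold changes of −3.56 to −0.88, with a median of −1.55. 000043F:397063-418495 stood at the far end with 194, 47.5 and 48.1 in the hindwing libraries, against 1478, 1018 and 890.1 in the forewing libraries. No hindwing library reached a forewing one, though hindwing 1 was well above hindwings 2 and 3. The log2 fold change was −3.56 ± 0.61 (adjusted p = 0.000689, edgeR), and −4.56 without hindwing 1.

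000325F:485215-490693 had 19.4, 13.6 and 12.6 in the hindwing libraries, against 229.5, 170.5 and 80.4 in the forewing libraries. It was scarcely detected in larvae (stage mean 0.923) and late pupae (4.81), and the lowest prepupal forewing lay far above the highest hindwing. The log2 fold change was −3.40 ± 0.51 (adjusted p = 0.000226, edgeR). 000377F:264215-275037 had 877, 539 and 111 in the hindwing libraries, against 7023, 7151 and 1422 in the forewing libraries, with number 3 lowest in both wings. Its log2 fold change of −3.36 ± 1.04 (adjusted p = 0.0444, edgeR; 3.69e-05 with paired numbers) missed the threshold when hindwing 1, 2 or 3 or forewing 1 or 2 was left out (adjusted p = 0.0611 to 0.164), without the filter on low counts and in a fit of prepupal libraries alone.

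Smaller differences were found in models with high counts. 000017F:2078034-2081822 had 8963, 9143 and 5244 in the hindwing libraries, against 32175, 31479 and 23745 in the forewing libraries, with no overlap and a log2 fold change of −1.90 ± 0.21 (adjusted p = 1.07e-05, edgeR). 000005F:200827-212274 had 17017, 9969 and 10107 in the hindwing libraries, against 27172, 18697 and 24807 in the forewing libraries. The wings did not overlap, but the log2 fold change of −0.93 ± 0.25 (adjusted p = 0.0184, edgeR) missed the threshold without hindwing 2 or 3 or forewing 1 or 3 (adjusted p = 0.0524 to 0.0981), in a fit of prepupal libraries alone (0.0937) and on library totals (0.294).

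By adjusted p, and so chosen after the values were seen, the forewing-led models with the smallest values were 000016F:2527562-2531578, 000241F:18593-22514 and 000017F:2078034-2081822. The first, which overlaps another model, had 65.7, 45.6 and 38.7 in the hindwing libraries, against 392, 427 and 245 in the forewing libraries, a log2 fold change of −2.83 ± 0.27 (adjusted p = 2.21e-06, edgeR). 000241F:18593-22514 had 1122, 876 and 845 in the hindwing libraries, against 2871, 2318 and 2437 in the forewing libraries, a log2 fold change of −1.42 ± 0.15 (adjusted p = 9.32e-06, edgeR). Forewings stood above hindwings without overlap in both.

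Other models named for their ratio or counts were not called in the unpaired edgeR fit of all 24 libraries, though some were in other fits. 000105F:758089-759764 had the lowest fitted log2 fold change of all 92, −3.84 ± 1.55, at an adjusted p of 0.135 (edgeR), and −3.90 ± 0.27 at 5.32e-07 with paired numbers. Unpaired, it passed by DESeq2 (adjusted p = 0.0356) and in an edgeR fit of prepupal libraries alone (0.00389). 000715F:20365-27682 gave −0.96 ± 0.31 (0.0546 without and 0.000296 with pairing, edgeR adjusted p), and passed unpaired by DESeq2 (0.0113) and in the fit of prepupal libraries alone (0.0235). 000003F:224816-234679 gave −0.64 ± 0.29 (edgeR adjusted p = 0.202 and 0.0113 in the same order). On library totals its log2 fold change was 0.00038 and it was not called. 000201F:816997-822679, with a hindwing lead without overlap, gave 0.94 ± 0.49 (edgeR adjusted p = 0.276 and 0.000318 in the same order). It passed in the fit of prepupal libraries alone (0.0231) and on library totals (0.0415), where its log2 fold change was 1.56. For 000016F:154625-164314, 000329F:178483-184582, 000040F:883278-891691 and 000108F:280670-288696 the wings overlapped and the sign depended on one library or on the scaling.

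At 72 h the same models showed no wing difference that passed the test. None of the 92 was called by edgeR, beside 0.00753% of all models tested. Of the 92, 5 had an unadjusted p below 0.05 (edgeR), beside 508 of all 13282. DESeq2 called none, with 6 at an unadjusted p below 0.05, beside 576 of 18746 models. Without 72 h hindwing 3, edgeR again called none of the 92, beside 143 of all 13282. An unadjusted p below 0.05 was then seen in 25 of the 92, beside 1641 of all. With any other single 72 h library left out it was seen in 2 to 9 of the 92. The hindwing mean was above the forewing mean in 53 of 92, and the median log2 fold change was 0.08 (quartiles −0.14 and 0.37), against −0.01 for all tested models. Fitted values were positive in 53 of the 92, beside 6470 of all 13282 models tested. Wings did not overlap in 3 models with the hindwing above and 1 with the forewing above, beside 1.85% and 2.55% of all tested models. Those with the hindwing above were 000003F:5757285-5759365, 000146F:440533-446053 and 000559F:113336-119350, and the other was 000704F:35509-73123, the last 3 named after their values were seen. With numbers paired, 10 passed the test, 6 with the hindwing above and 4 with the forewing above (10.9%, beside 2.91% of all models tested that way). They included 000051F:559341-561081 at 2.44 ± 0.37 (paired edgeR, adjusted p = 0.00531), 000105F:758089-759764 at 1.35 ± 0.27 (0.0197), 000040F:883278-891691 at −0.81 ± 0.19 (0.0395) and 000108F:280670-288696 at −1.03 ± 0.25 (0.0472). Among the 6 were also the neighbours of the first, 000051F:533597-539778 and 000051F:539886-542239 (paired edgeR, adjusted p = 0.0406 and 0.0177). Deviations from the group mean correlated along this run at r = 0.978 and 0.982, so its models are not independent. In the 72 h libraries numbered 3, 000051F:559341-561081 had 4.13 in the hindwing and 0 in the forewing.

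For the 29 models lower in the prepupal hindwing, the 72 h log2 fold change ran from −0.99 to 1.16 with a median of 0.03, and the hindwing mean was the higher one in 16. In these 29 the 72 h mean was a median of 1.94 times the prepupal mean in hindwings and 0.648 times in forewings. These models were picked for prepupal hindwing counts below forewing counts, and both ratios divide by those same prepupal counts. The directions of the ratios are therefore tied to the choice.

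The change of the wing difference from prepupa to 72 h was tested directly. It was called in 18 of the 92 models (19.6%), 14 toward the hindwing and 4 toward the forewing, beside 4.61% of all models tested (2.93% toward the hindwing and 1.68% toward the forewing) and 6.33% of those that met the level and closeness conditions. The median change was 0.98 on the log2 scale for the 92 and 0.02 for all tested models. Of the 18, 13 were among the 29 forewing-led models of the prepupa and 4 were the hindwing-led ones. The change subtracts the prepupal difference, so a large prepupal difference with a small one at 72 h gives a change of opposite sign by construction. This overlap and the directions are therefore tied to the prepupal calls. Of the 38 models that met the rule in each wing, 2 were called (5.26%), both toward the hindwing, at a median change of 0.21.

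000017F:2078034-2081822 changed by 1.83 ± 0.28 (adjusted p = 0.00118, edgeR), with 72 h values of 8715, 10744 and 11547 in the hindwing libraries, against 10007, 12031 and 10575 in the forewing libraries, which overlapped. 000325F:485215-490693 changed by 3.25 ± 0.66 (adjusted p = 0.00729, edgeR): at 72 h it had 241, 264 and 202 in the hindwing libraries, against 359, 261 and 166 in the forewing libraries, and the wings overlapped. 000016F:2527562-2531578 changed by 3.09 ± 0.36 (adjusted p = 9.98e-05, edgeR) and 000241F:18593-22514 by 1.502 ± 0.21 (0.000516). 000043F:397063-418495 changed by 3.05 ± 0.80 (adjusted p = 0.0337, edgeR), a call that ended without any of 7 of the 12 libraries (prepupal hindwing 2 or 3, prepupal forewing 1, 72 h hindwing 2 or 3, 72 h forewing 1 or 3; adjusted p = 0.0535 to 0.0952), on library totals (0.0508), and without both 72 h libraries numbered 3 (2.46, adjusted p = 0.112). Without prepupal hindwing 1 its change was 4.04.

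The hindwing-led models changed the other way. The change was −3.80 ± 0.71 for 000036F:431337-446513 (adjusted p = 0.00473, edgeR; −3.10 without 72 h forewing 2) and −3.45 ± 0.65 for 000036F:421611-423365 (adjusted p = 0.00517, edgeR). It was −4.19 ± 0.61 for 000789F:44478-46587 (adjusted p = 0.000689, edgeR) and −3.76 ± 0.59 for 000789F:55917-69750 (adjusted p = 0.00121, edgeR).

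One model was called for the change without a call in the prepupa. 000003F:5757285-5759365 had 412, 345 and 274 in the hindwing libraries, against 663, 378 and 1789 in the forewing libraries in the prepupa, and 3587, 658 and 694 in the hindwing libraries, against 617, 477 and 231 in the forewing libraries at 72 h. Prepupal wings overlapped, and at 72 h every hindwing library was above every forewing library, with hindwing 1 far above the rest. The change was 3.36 ± 0.82 (adjusted p = 0.0231, edgeR). It fell short of the threshold without prepupal hindwing 2 or 3, prepupal forewing 3 (2.50), 72 h hindwing 1 (2.07) or 72 h forewing 3 (adjusted p = 0.0506 to 0.0839).

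The count of changed models moved with the fit: it was 57 with paired numbers (62.0%, beside 21.5% of all models tested that way), 31 by DESeq2 (33.7%, beside 8.64%), 28 without 72 h hindwing 3 (30.4%, beside 7.35%), 30 without both 72 h libraries numbered 3 (32.6%, beside 6.59%), and 3 in a fit of these 2 stages alone (3.26%, beside 0.256%; 000016F:2527562-2531578, 000241F:18593-22514 and 000789F:44478-46587). On library totals it was 13 (14.1%), 8 toward the hindwing and 5 toward the forewing, beside 19.4% of all models tested that way (0.678% toward the hindwing and 18.7% toward the forewing), with the median of all models at −0.79 and that of the 92 at 0.17.

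**Figure D4:**
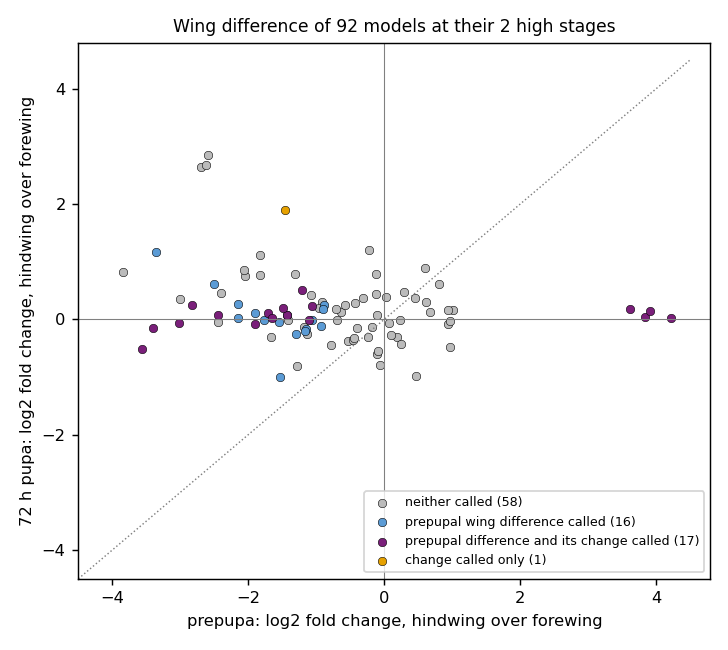
Each point is one of the 92 models, with the log2 hindwing over forewing fold change in the prepupa on the horizontal axis and at 72 h on the vertical axis. The dotted line marks equal differences, and colours mark the calls of edgeR at an adjusted p below 0.05. Points spread from −3.84 to 4.22 in the prepupa and from −0.99 to 2.86 at 72 h. Those called lower in the prepupal hindwing lie between −0.99 and 1.16 at 72 h.

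In the flanking stages almost no wing difference of these models passed a test. None was called in the 5th instar by edgeR, beside 0.0376% of all models tested, and DESeq2 called none. By edgeR 5 had an unadjusted p below 0.05 (3 of the hindwing-led models, 000043F:642465-651774 and 000014F:1440687-1447394), beside 359 of all 13282 models. The median log2 fold change was −0.04, against 0.00 for all tested models. With paired numbers 1 was called (beside 0.986% of all models tested that way), 000014F:1440687-1447394, named after its values were seen. It had 27.3, 35.0 and 64.0 in the hindwing libraries, against 78.6, 107 and 134 in the forewing libraries, a forewing lead without overlap, and a paired log2 fold change of −1.38 ± 0.26 (adjusted p = 0.0249, edgeR). In the late pupa none was called by edgeR, paired or not, or by DESeq2, beside 0.0301% of all models tested unpaired and 0.482% paired. Unpaired, 1 had an unadjusted p below 0.05 (edgeR), beside 258 of all 13282 models. It was 000001F:3189290-3196654 with means of 207 in hindwings and 110.4 in forewings, named after its values were seen. The forewing mean was above the hindwing mean in 63 of 92, at a median log2 fold change of −0.12, against 0.01 for all tested models. Fitted late pupal values were positive in 30 of the 92, beside 6775 of all 13282 models tested.

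Libraries of one group differed more in these models than in the other models that met the level and closeness conditions. The rule averaged these same counts, and a single high library can carry a stage mean past its ratio. The spread is therefore a description of the models chosen and is not independent of the choice. At 72 h the median coefficient of variation over 3 libraries was 48.9% in hindwings and 43.2% in forewings, against 21.4% in hindwings and 18.8% in forewings for those other models. In the prepupa it was 27.1% in hindwings and 25.7% in forewings, against 15.3% in hindwings and 15.04% in forewings. In the 5th instar and the late pupa, where their counts are low by the rule, it lay between 20.1% and 27.3%, against 10.5% to 14.1%.

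The libraries numbered 3 often departed in the same direction in both wings, in the 92 and in all tested models. The shares of the 92 rest on counts that the rule used, so they too describe the models chosen. At 72 h both libraries numbered 3 were below the mean of numbers 1 and 2 of their wing in 52 of the 92 models (56.5%, against 38.5% of all tested models) and above it in 24 (26.1%, against 35.0%). They were lower by 1 or more on the log2 scale in 22 (23.9%, against 10.4%) and higher by as much in 6 (6.52%, against 4.49%). Number 3 was not the only extreme library at 72 h. Hindwing 1 was the lowest of its wing in 39 of the 92 and the highest in 37, beside 39 and 36 for hindwing 3. Forewing 1 was the lowest in 31 and the highest in 37, beside 55 and 21 for forewing 3. 000105F:636121-652564 covered a wide span, with 72 h values of 14744, 214 and 41.3 in the hindwing libraries, against 15037, 495 and 0 in the forewing libraries. Number 1 was highest and number 3 lowest in both wings. Its prepupal values of 2657, 2348 and 1863 in the hindwing libraries, against 10801, 10901 and 15556 in the forewing libraries were close together within a wing and did not overlap between wings (log2 fold change −2.44 ± 1.66, edgeR adjusted p = 0.447, 0.00297 in the unpaired fit of prepupal libraries alone, and 0.00222 with paired numbers).

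The opposite order was seen in 000040F:883278-891691, which overlaps another model and had 246, 310.0 and 1367 in the hindwing libraries, against 378, 634 and 2342 in the forewing libraries at 72 h, and in 000108F:280670-288696 above, where number 3 was highest in both wings. Without both 72 h libraries numbered 3 the rule was met by 81 models, 73 of them among the 92. The labels do not say what libraries of one number share, and the part of these libraries in the stage profile was not tested beyond that count.

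**Figure D5:**
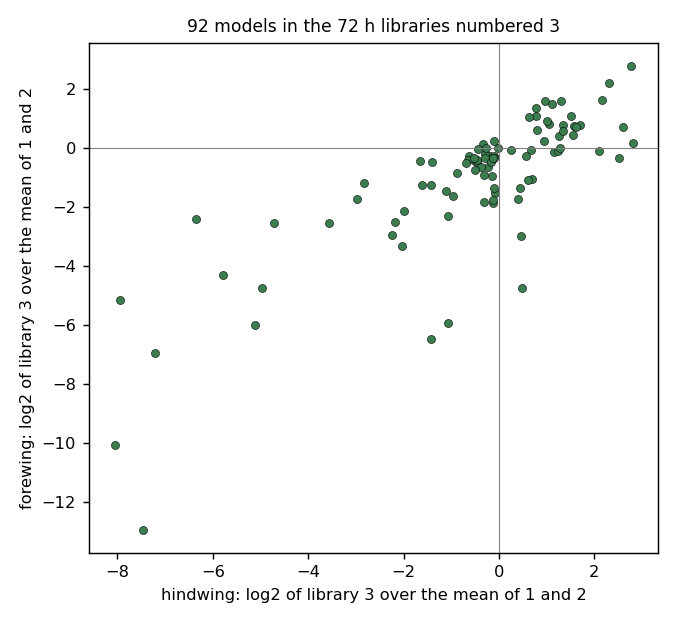
Each point is one of the 92 models. The axes give log2 of the 72 h library numbered 3 over the mean of numbers 1 and 2, for hindwings (horizontal) and forewings (vertical). Of the 92 points, 52 lie below 0 in both wings and 24 above 0 in both, and the lowest point is 000105F:636121-652564, listed at 0 in forewing library 3.

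The 92 models sat on 70 contigs, and 25 of them formed 11 runs of adjacent members, 8 of 2 and 3 of 3 models. They make up 0.478% of the models in the table, and 14 of its 18423 pairs of neighbouring models are pairs of members. Gaps between such neighbours ran from 107 to 223969 bp, with a median of 8827 bp. Deviations from the group mean over the 12 prepupal and 72 h libraries correlated between neighbours with a median r of 0.962, at least 0.9 in 10 of 14 pairs. Other pairs of members had a median r of 0.0592, and 1.77% of 4172 reached 0.9. The points share libraries and scaling, so r is a description. Whether neighbouring models are pieces of one transcript was not tested. With 1 model counted per run, 25 of 78 were lower and 2 higher in the prepupal hindwing, at a median log2 fold change of −1.06. Among all models tested, 7.08% were lower and 3.42% higher.

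The run on contig 000051F moved with the library number. 000051F:539886-542239, the middle of the 3, had 2248, 837 and 113 in the hindwing libraries, against 13527, 5413 and 402 in the forewing libraries in the prepupa and 9521, 1201 and 20.6 in the hindwing libraries, against 1139, 328 and 19.9 in the forewing libraries at 72 h. Number 1 was highest and number 3 lowest in each wing and stage, so the wings overlapped although the forewing library of each number was above its hindwing partner in the prepupa and below it at 72 h. Its prepupal log2 fold change was −2.60 ± 1.53 (edgeR adjusted p = 0.354) and −2.41 ± 0.37 with paired numbers (0.000301). The neighbours 000051F:533597-539778 and 000051F:559341-561081 gave −2.64 ± 0.40 and −2.40 ± 0.31 with paired numbers (edgeR adjusted p = 0.000284 and 0.000123; 0.169 and 0.292 unpaired). Leaving out prepupal number 1 of the hindwing put the unpaired values of the 3 between −3.76 and −3.45, and of the forewing between −1.97 and −1.45.

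On contig 000202F the 3 neighbours kept nearly constant proportions: the SD of their log2 ratio over 24 libraries was 0.17 for both neighbouring pairs, against a median of 1.84 for members that are not neighbours. 000202F:63693-70451 had 1331, 1086 and 852 in the hindwing libraries, against 2869, 1999 and 1924 in the forewing libraries in the prepupa and 2087, 1968 and 1649 in the hindwing libraries, against 1658, 1801 and 1377 in the forewing libraries at 72 h. Forewings were above hindwings without overlap in the prepupa, and the wings overlapped at 72 h. Its prepupal log2 fold change was −1.06 ± 0.18 (adjusted p = 0.000604, edgeR) and its change 1.29 ± 0.25 (adjusted p = 0.00561, edgeR; 0.108 on library totals). 000202F:80485-88554 and 000202F:75065-79579 followed with −0.91 ± 0.22 and −0.88 ± 0.27 (adjusted p = 0.0109 and 0.0399, edgeR). Both of these calls ended without hindwing 3 or forewing 1, the second also without hindwing 2 (adjusted p = 0.0721 to 0.245). Both also ended on library totals (0.199 and 0.339) and in the fit of prepupal libraries alone (0.076 and 0.192), and the second ended with TMM factors (0.0543) and without the filter on low counts (0.0562).

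The run on contig 000043F was looser. 000043F:397063-418495 lies 223969 bp from the next member, and the r of their deviations was 0.07. 000043F:642465-651774 had 102, 160.1 and 158 in the hindwing libraries, against 309.8, 304 and 332 in the forewing libraries in the prepupa, with no overlap, and a log2 fold change of −1.17 ± 0.25 (adjusted p = 0.00431, edgeR; 0.232 on library totals). Its short neighbour 000043F:656184-656532 gave −1.14 ± 0.40 (adjusted p = 0.0798, edgeR; 0.00162 with paired numbers, and 0.0453 by unpaired DESeq2), from prepupal values of 44.8, 104 and 105 in the hindwing libraries, against 161, 170.5 and 231 in the forewing libraries, again without overlap.

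The median span of the members was 6058 bp from first to last position, against 6181 bp for all tested models, and ran from 349 to 48827 bp. The spans of 15 overlapped another model, so that reads there cannot be given to one model with certainty. The biological coefficient of variation that edgeR fitted had a median of 37.8% over the 92, against 27.9% over all tested models. It was fitted to counts that the rule used, so it is a description as well.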

How the data were processed

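The authors deposited one table of raw counts per gene model, in whole numbers, for 24 wing libraries; every count column was used. Per the submitters' processing notes, TopHat, bedtools and DESeq2 were among the tools; their roles and versions, the genome build and the strand setting are not stated there. The other 14 libraries of the series were not analysed here. Size factors of the median-of-ratios method came from 10830 models with counts in every library. filterByExpr of edgeR 4.0.16 (R 4.3.3; minimum count 10, minimum total 15) left 13282 models, and a quasi-likelihood fit with 8 group means (common biological coefficient of variation 38.7%) gave two-sided tests with Benjamini-Hochberg adjustment over all of them, called below 0.05. SE is the size of the log2 fold change over the root of F. The fit was tried on simulated counts with independent libraries and the same dispersion for every model. That trial does not cover the correlation between libraries of the same number seen here. Alternatives were TMM, library totals, no filter, DESeq2 1.42.0, paired numbers, a fit of the stages compared, and left-out libraries. Replicate numbers come from the labels. Deviations from the group mean correlated across models between hindwing and forewing of the same stage and number in all 12 pairs (r = 0.471 to 0.739). For different numbers r reached at most −0.133. Such deviations cancel within a group, so a positive r for the same number makes the others negative on average. The numbers were taken as pairs in the fits described as paired. This pairing was chosen from these same counts and not from the labels, a limit on every paired p-value. The members, the naming rule and the comparisons were chosen with earlier results of these data known. Named are the 6 largest ratios, 4 models either side of the threshold, the 4 highest levels, the 3 largest called wing differences each way at the high stages, the 2 largest called changes each way, the longest runs, and the 2 members highest and 2 lowest in the 72 h libraries numbered 3.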

Additional observations from a re-analysis of the deposited data

Results flagged for a closer look

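The hindwing over forewing difference changed between prepupa and 72 h, by a test of the change itself in edgeR, in these named models. The change on the log2 scale was positive, toward the hindwing, for 000003F:5757285-5759365 (3.36), 000325F:485215-490693 (3.25), 000016F:2527562-2531578 (3.09), 000043F:397063-418495 (3.05), 000017F:2078034-2081822 (1.83), 000241F:18593-22514 (1.502) and 000202F:63693-70451 (1.29). It was negative, toward the forewing, for 000789F:44478-46587 (−4.19), 000036F:431337-446513 (−3.80), 000789F:55917-69750 (−3.76) and 000036F:421611-423365 (−3.45). Adjusted p-values and the libraries on which calls depend are given with the results.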

How the results depend on the processing

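Counts of called models stayed within 1.5 times of the main value under TMM factors, library totals and no filter for every wing comparison, and in the late pupa under all alternatives run. The prepupal count on library totals was at that limit, 22 against 33, with 15 lower and 7 higher against 29 and 4. Of all models tested, 27.6% were called there, against 10.5% in the main fit. Paired numbers (the replicate block) gave 1 called model for the 5th instar, 61 for the prepupa, 10 for 72 h and 57 for the change, against 0, 33, 0 and 18. The change gave 31 by DESeq2, 3 in a fit of the 2 stages alone and 30 without both 72 h libraries numbered 3. Leaving out each library gave 0 in the 5th instar, at 72 h and in the late pupa, 26 to 29 in the prepupa, 15 to 28 for the change, and 83 to 96 members. Membership was 35 on library totals, 194 at a ratio of 2, 54 at a ratio of 4 and 38 when each wing alone had to meet the rule. The cause of these moves was not tested.

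Among the results recomputed, the sign reversed in models not called in the prepupa. On library totals the log2 fold change was 0.00038 for 000003F:224816-234679, 0.30 for 000329F:178483-184582 and 0.58 for 000040F:883278-891691. With TMM it was 0.0092 for 000040F:883278-891691. Leaving out one prepupal library gave −0.26 to 0.27 for 000040F:883278-891691 (0.21 without hindwing 2, 0.27 without forewing 3), −0.014 to 0.43 for 000016F:154625-164314 and −1.36 to 1.82 for 000108F:280670-288696, the lower ends of the last 2 without hindwing 3. Calls of the change ended in the fit of 2 stages alone for 000003F:5757285-5759365, 000017F:2078034-2081822, 000043F:397063-418495, 000202F:63693-70451, 000325F:485215-490693 and 3 of the 4 hindwing-led models (adjusted p = 0.0515 to 0.193).

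Limits: with 3 libraries a group, a p that missed the threshold at 72 h does not show equal wings, and 10 models passed there with paired numbers. Membership and the split of prepupal calls depend on the scaling of the libraries. So does whether the 92 were called more often than all models when both directions are counted together.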
